A study of Danio rerio with 4 samples.

Results

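Neuropeptides are short signalling peptides that neurons cut from larger precursor proteins, store in dense-core granules and release to act on G-protein-coupled receptors. In the fish brain many are made in the hypothalamus and preoptic area, where they take part in feeding, stress, reproduction, sleep and the control of the pituitary. The genes described here encode neuropeptide precursors, granule proteins and pituitary hormones outside the melanocortin system. A list of 45 gene symbols was searched by exact name in a table of raw read counts for 31030 zebrafish genes, and 41 were found. The 4 that were not found by name (sst1, qrfp, cart3 and tshba) are not analysed here. The list was put together by the known function of its genes, but with earlier results of these data known. The shares of members given below are therefore not from a list chosen blind to the data.

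Total RNA of whole brains was sequenced from adult zebrafish aged 4 months. There was 1 library for each of 4 groups, namely male wild type (WT), male atrn-/-, female WT and female atrn-/-. The atrn-/- fish carry a CRISPR/Cas9 deletion that is predicted to truncate Attractin, a transmembrane glycoprotein with CUB, kelch and EGF domains, and all come from 1 mutant line. No other allele or treatment is named for any group, and the background strain is not given in the sources used here. The sources speak both of a single brain and of several brains per group, so the number of brains behind each library is not known. In bulk brain RNA, fewer cells of a type and less RNA per cell cannot be told apart.

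Depth and composition bear on every value. Total counts were between 8654693, in the female WT, and 16254750, in the male atrn-/-. Counts were converted to CPM (counts per 1000000 counts) with TMM library sizes, so a count of 3, used here as the detection floor, equals 0.186 to 0.342 CPM. The knocked-out gene atrn had 50.5 and 75.4 CPM in the male and female WT and 28.7 and 32.3 CPM in the male and female atrn-/-. The 12 neuron markers in the table (such as elavl3, snap25a and map2) summed to 11450 to 12590 CPM in the 4 libraries. Skeletal muscle genes stood apart. The 20 muscle markers summed to 4783 CPM in the female WT and to 602 CPM in the female atrn-/-, against 215 and 98.6 CPM in the male WT and male atrn-/-. The blood markers summed to 983 and 724 CPM in the male and female WT and to 411 and 423 CPM in the male and female atrn-/-. The photoreceptor and pineal markers summed to 23.3 and 26.1 CPM in the male and female WT and to 144 and 65.3 CPM in the male and female atrn-/-. The part that any of these tissues has in the results below was not tested, except where a value is given.

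Of the 41 genes, 33 averaged at least 10 counts across the libraries and entered the comparisons, together with 19943 genes in all. Within a sex or within a genotype each side is 1 library. Such a difference is given as a log2 ratio, computed with a prior count of 2, with a 95% interval based on exact Clopper-Pearson limits for the counts. The interval covers counting error only, the ratio has no replicates behind it, and no p-value goes with it. Over all 4 libraries, edgeR's quasi-likelihood test compared genotypes with sex as a covariate, and sexes with genotype as a covariate, with Benjamini-Hochberg adjustment over the 19943 genes. Each fit rests on 2 libraries a group and 1 residual degree of freedom. The libraries come from fish of different sex or genotype, with no repeat library within a group. These p-values therefore rest only on the spread between the 4 libraries, with dispersion shared across genes. The residual degree of freedom is the difference between the sexes in the genotype ratio. A gene whose genotype ratio is opposite in the sexes thus has that difference counted as error in both fits.

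The 41 genes together took 0.251% and 0.248% of all counts in the male WT and male atrn-/-, and 0.222% and 0.220% in the female WT and female atrn-/-. Gene lengths of the build used were not at hand, so levels are compared between libraries for the same gene and not between genes. Most of the 33 genes were close between genotypes. In males, 29 of the 33 had a log2 ratio of atrn-/- over WT within 0.5 of 0, as had 81.3% of all genes. In females 29 of the 33 did, as had 77.1% of all genes. Between the sexes fewer were close. The ratio of female over male was within 0.5 of 0 for 22 of the 33 in WT, beside 76.8% of all genes, and for 25 of the 33 in atrn-/-, beside 82.7% of all genes.

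**Figure D1:**
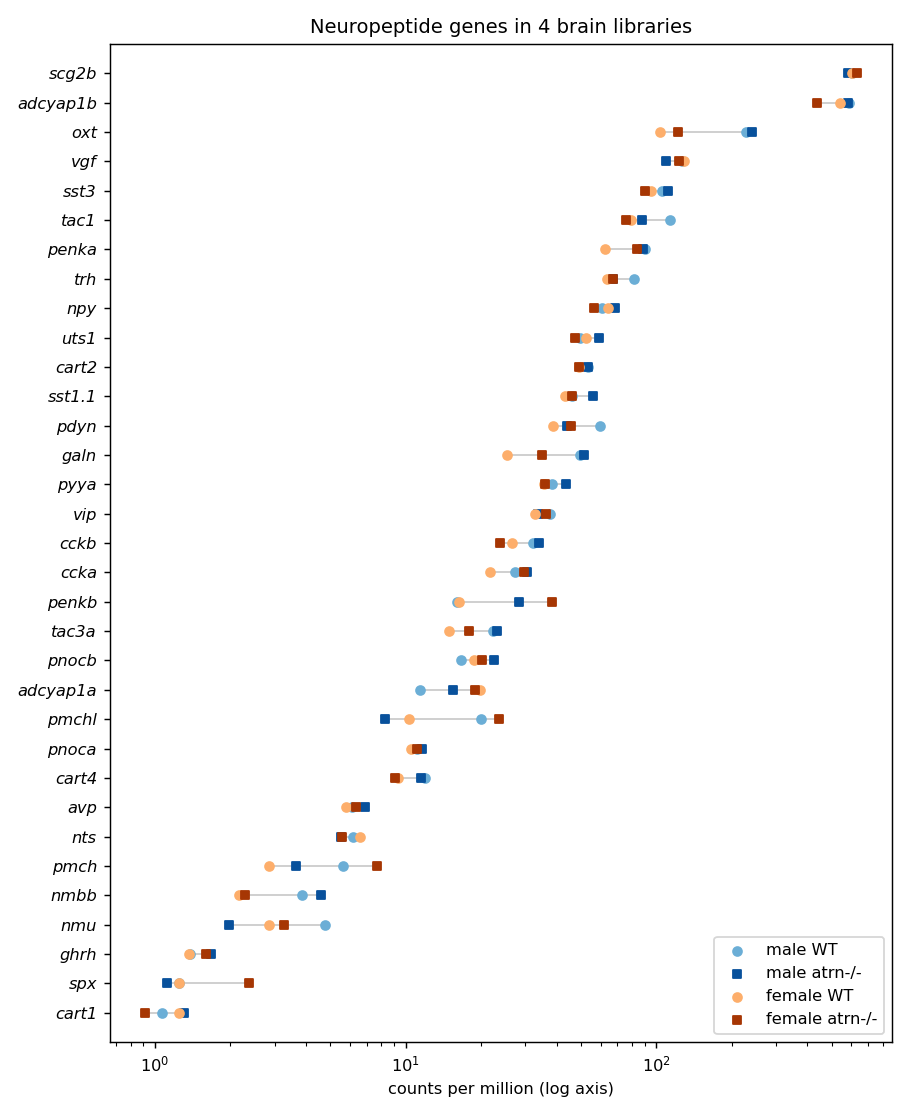
Level of the 33 genes averaging at least 10 counts, in CPM on a log axis, with 1 point for each of the 4 libraries (blue male, orange female, circles WT, squares atrn-/-) and genes ordered by their mean. The points of oxt and galn separate by sex, those of penkb separate by genotype, and in pmchl the male atrn-/- and the female WT are low while the male WT and the female atrn-/- are high.

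The first comparison asks how the brains of atrn-/- fish differ from WT in these genes. Few members differed by 2-fold. In males 2 of 33 members differed at least 2-fold, pmchl and nmu, beside 5.12% of all genes. Both were lower in atrn-/-, as were 2.4% of all genes. In females 3 of 33 did, pmch, pmchl and penkb, beside 7.79% of all genes. All were higher in atrn-/-, as were 3.36% of all genes. The member medians of the log2 ratio were 0.059 in males and 0.086 in females, against -0.0070 and 0.0017 over all genes. Across the 4 libraries, edgeR's quasi-likelihood test called 0 of the 33 members at an adjusted p under 0.05, beside 0.211% of all genes (42 of 19943). At an unadjusted p under 0.05 it named 1 member, penkb, beside 9.07% of all genes in either direction and 4.41% higher. The DESeq2 Wald test also called 0 members after adjustment, beside 0.481% of all genes, and named penkb alone at an unadjusted p under 0.05, beside 3.66%.

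The enkephalin gene penkb was higher in atrn-/- in both sexes. Proenkephalins are precursors of Met- and Leu-enkephalin, opioid peptides that act mainly at delta and mu receptors, and zebrafish have the paralogs penka and penkb. The level of penkb was 16 CPM in the male WT, 28.3 CPM in the male atrn-/-, 16.4 CPM in the female WT and 38.3 CPM in the female atrn-/-. Both WT libraries were low and nearly equal, and both atrn-/- libraries lay above them. The log2 ratio was 0.82 (95% interval 0.60 to 1.05) in males and 1.22 (95% interval 0.95 to 1.501) in females. Over both sexes the log2 fold change was 1.02 (standard error 0.172), and it did not pass (adjusted p = 0.118, edgeR's quasi-likelihood test). Over the 10 alternatives the log2 fold change lay between 0.80 and 1.24 and the adjusted p between 0.00473 and 0.856, and it passed only without the filter on low counts. Both atrn-/- libraries were above both WT libraries in 6 of the 33 members (avp, penkb, pnoca, pnocb, ccka and ghrh) (18.2%), beside 18.6% of all genes. In RefSeq's table of a later assembly, GRCz12tu, penkb overlaps 1 uncharacterised protein-coding locus. Strand use in the counting is not given in the sources used here, so reads of the 2 loci may not be told apart.

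Of the other opioid precursors, penka and pdyn did not share this pattern, while pnoca and pnocb had both atrn-/- libraries above both WT libraries by less. penka had 89.8 CPM in the male WT, 88.2 CPM in the male atrn-/-, 62.3 CPM in the female WT and 83.5 CPM in the female atrn-/-. The female WT was the low library, and the log2 ratio of atrn-/- over WT was -0.027 in males and 0.42 (95% interval 0.27 to 0.57) in females. pdyn, the precursor of dynorphins, which act at kappa receptors, had 59.5 CPM in the male WT, 43.9 CPM in the male atrn-/-, 38.7 CPM in the female WT and 45.5 CPM in the female atrn-/-. Its log2 ratio was -0.44 (95% interval -0.58 to -0.30) in males and 0.23 (95% interval 0.04 to 0.43) in females. The nociceptin gene pnocb had 16.6 CPM in the male WT, 22.5 CPM in the male atrn-/-, 18.8 CPM in the female WT and 20.2 CPM in the female atrn-/-. Its log2 ratio was 0.43 (95% interval 0.20 to 0.67) in males and 0.10 (95% interval -0.18 to 0.40) in females, and that of pnoca was 0.074 and 0.087 with both intervals including 0. Of the 5 opioid receptor genes, oprd1b, a delta receptor, had 24.7 CPM in the male WT, 26.1 CPM in the male atrn-/-, 24.1 CPM in the female WT and 35.2 CPM in the female atrn-/-. The female atrn-/- was the high library for oprd1b. Its paralog oprd1a, also a delta receptor, did not share this. It had 27.6, 26.1, 33.5 and 27.9 CPM in the male WT, male atrn-/-, female WT and female atrn-/-. The female log2 ratio of oprd1a was -0.26 (95% interval -0.49 to -0.04). The mu receptor oprm1 stayed between 11.6 and 14.2 CPM. The kappa receptor oprk1 had 10.4 CPM in the female WT and 4.71 to 5.87 CPM in the other libraries.

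Both melanin-concentrating hormone (MCH) genes differed in opposite directions in the sexes. MCH is named for paling fish skin and is made by hypothalamic neurons that bear on feeding and sleep, and zebrafish have the genes pmch and pmchl. pmchl had 20.0 CPM in the male WT, 8.25 CPM in the male atrn-/-, 10.4 CPM in the female WT and 23.5 CPM in the female atrn-/-. pmch had 5.63 CPM in the male WT, 3.66 CPM in the male atrn-/-, 2.85 CPM in the female WT and 7.70 CPM in the female atrn-/-. In both genes the male WT and the female atrn-/- were high and the other libraries low.

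In males the log2 ratio of atrn-/- over WT was -1.26 (95% interval -1.58 to -0.98) for pmchl and -0.60 (95% interval -1.12 to -0.13) for pmch. In females it was 1.17 (95% interval 0.84 to 1.53) for pmchl and 1.39 (95% interval 0.79 to 2.13) for pmch. The female ratio exceeded the male ratio by 2.43 on the log2 scale for pmchl and by 1.99 for pmch. With 1 library for each sex and genotype this difference between the sexes could not be tested. A genotype ratio of at least 2-fold in opposite directions in the sexes was found for 1 of 33 members, pmchl, beside 0.506% of all genes. An interval below 0 in males and above 0 in females was found for 4 members (pmch, pmchl, pdyn and scg2b), beside 3.26% of all genes. The reverse was found for npy alone, beside 2.68% of all genes. Whether an interval leaves out 0 depends on the counts of a gene. scg2b, with a mean of 8150 counts, met the rule with log2 ratios of only -0.054 in males and 0.067 in females. In RefSeq's table pmch overlaps nup37 and parpbp, while pmchl overlaps no gene. nup37 had 11.4, 11.9, 10.4 and 8.70 CPM in the male WT, male atrn-/-, female WT and female atrn-/-, an order unlike that of pmch. parpbp had only 27, 25, 9 and 29 counts in the same libraries. These equal 1.69, 1.55, 1.02 and 2.21 CPM, which is the order of pmch. Its log2 ratio of atrn-/- over WT was -0.11 (95% interval -0.97 to 0.72) in males. In females it was 1.01 (95% interval -0.0072 to 2.37), so both intervals include 0. Whether pmch shares reads with parpbp was not tested.

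Some transcription factors of the hypothalamus differed in the same directions as the MCH genes. By sign alone, 10 of 18 such genes kept were lower in the male atrn-/- and higher in the female atrn-/- than in same-sex WT. The same held for 22.3% of all genes and for 9 of the 33 members. Some of the 10 were near 0 in females, such as fezf2 (0.0070) and pou3f2b (0.025). An interval below 0 in males and above 0 in females was found for nkx2.4a, nkx2.4b and rx3 alone, beside 3.26% of all genes. This list was chosen with earlier results of these data known. nkx2.4b, a homeobox gene of the ventral hypothalamus, had 5.50 CPM in the male WT, 2.98 CPM in the male atrn-/-, 3.42 CPM in the female WT and 7.02 CPM in the female atrn-/-. Its log2 ratio was -0.85 (95% interval -1.43 to -0.36) in males and 1.01 (95% interval 0.43 to 1.69) in females. nkx2.4a had a log2 ratio of -0.90 in males and 0.62 in females, and rx3, which is needed to form the hypothalamus and eyes in zebrafish, had -1.13 and 1.2 on few counts (18, 7, 6 and 23). hmx2 had log2 ratios of -0.44 (95% interval -0.92 to 0.0083) in males and 0.60 (95% interval 0.05 to 1.22) in females. Other listed genes did not share the pattern. otpa was lower in both sexes, with log2 ratios of -0.57 and -0.50, and lhx9 had 0.021 and -0.15. edgeR's quasi-likelihood test called 0 of the 18 genes for genotype and 0 for sex at an adjusted p under 0.05, and 2 and 1 at an unadjusted p under 0.05, beside 9.07% and 7.57% of all genes. The part of these differences in the MCH result was not tested.

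**Figure D2:**
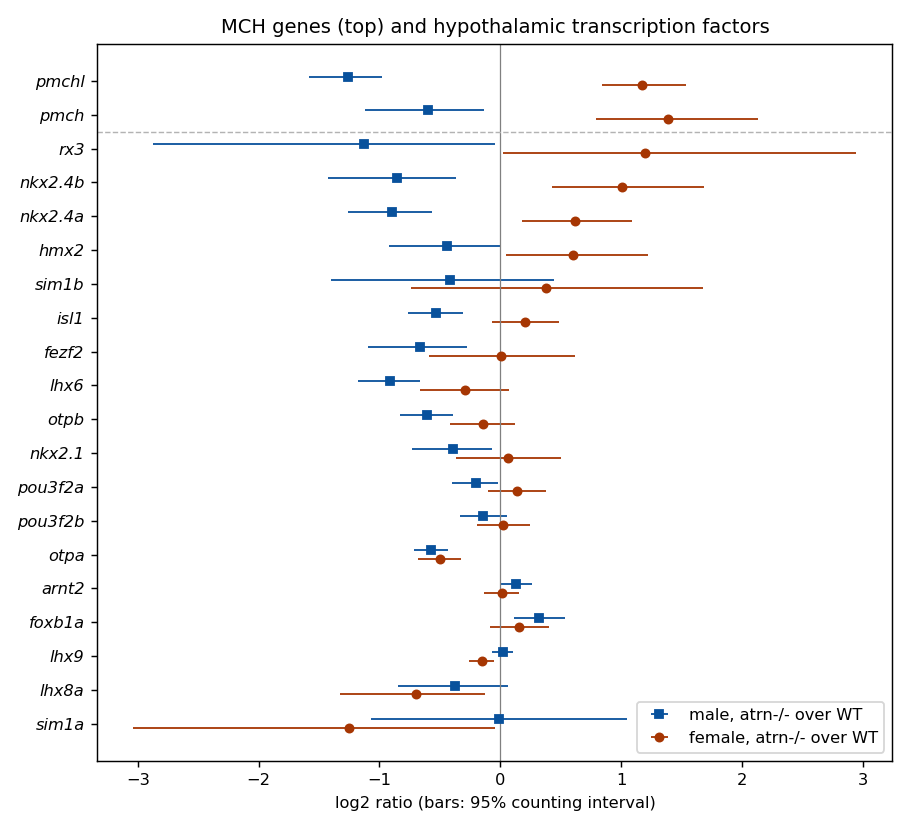
Log2 ratio of atrn-/- over WT in males (blue squares) and in females (brown circles) with its 95% counting interval, for the MCH genes pmchl and pmch above the dashed line and for 18 hypothalamic transcription factors below it, ordered by the difference between the sexes. pmchl, pmch, rx3, nkx2.4b and nkx2.4a lie below 0 in males and above 0 in females, while otpa lies below 0 in both.

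Of the MCH receptor genes, mchr1b alone was measured deeply enough to compare, and its libraries did not separate as those of the ligands did. mchr1b had 4.25 CPM in the male WT, 3.85 CPM in the male atrn-/-, 5.46 CPM in the female WT and 4.65 CPM in the female atrn-/-, with log2 ratios of -0.14 and -0.23 whose intervals include 0. mchr1a had 8 to 12 counts in each library, so a change was not detectable at this depth, and mchr2 had 0 counts in each library.

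**Figure D3:**
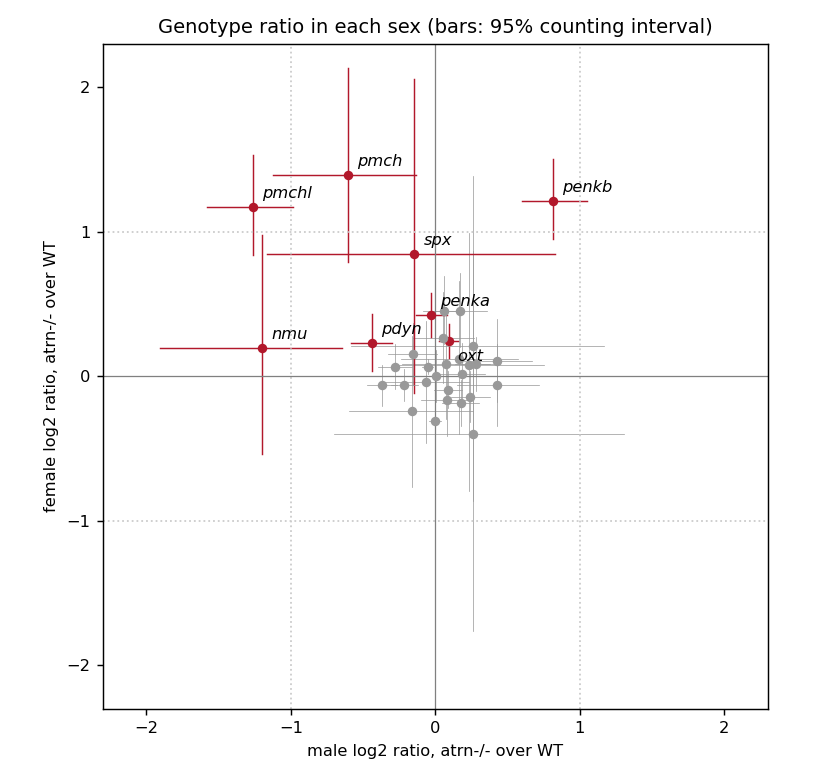
Log2 ratio of atrn-/- over WT in males (horizontal axis) and in females (vertical axis) for 33 genes, each point with its 95% counting intervals and with dotted lines at 2-fold. penkb lies above 0 on both axes at 0.82 and 1.22, pmchl and pmch lie left of 0 and above 1, and the grey points lie within 0.5 of 0 on both axes.

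Among the other feeding and arousal peptides, the neuromedin U gene nmu differed at least 2-fold in males. Its peptide, which lowers food intake in rodents, comes from a gene with 76 counts (4.75 CPM) in the male WT, 32 counts (1.98 CPM) in the male atrn-/-, 25 counts (2.85 CPM) in the female WT and 43 counts (3.28 CPM) in the female atrn-/-. The male WT was high. Its log2 ratio was -1.2 (95% interval -1.90 to -0.65) in males and 0.20 (95% interval -0.54 to 0.98) in females. spx, the precursor of spexin, a galanin-related peptide, had 20, 18, 11 and 31 counts in the male WT, male atrn-/-, female WT and female atrn-/-, and its female interval of -0.11 to 2.06 includes 0. npy, the precursor of the appetite-raising neuropeptide Y, stayed between 56.6 and 68.5 CPM. Its log2 ratio of atrn-/- over WT was 0.17 (95% interval 0.05 to 0.30) in males and -0.18 (95% interval -0.34 to -0.02) in females. Its relative pyya, a peptide YY gene, had ratios of 0.18 and 0.019.

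The cocaine- and amphetamine-regulated transcript (CART) genes encode appetite-lowering peptides. cart2 was the steadiest of all members over genotype, with 53.4 CPM in the male WT, 53.6 CPM in the male atrn-/- and 49.2 CPM in each female library. cart4 stayed between 9.08 and 12 CPM, and cart1 had 11 to 21 counts in each library. The cholecystokinin genes, whose peptides signal satiety, had 21.6 to 30.6 CPM for ccka and 23.7 to 34.05 CPM for cckb. ccka was lowest in the female WT, with a log2 ratio of 0.17 (95% interval -0.02 to 0.36) in males and 0.45 (95% interval 0.20 to 0.71) in females. The neurotensin gene nts had 5.52 to 6.60 CPM, with both intervals including 0. Both atrn-/- libraries were below both WT libraries in nts and vgf, 2 of 33 members, beside 19.2% of all genes. hcrt, the precursor of the wake-promoting hypocretins, had 11, 13, 3 and 8 counts in the male WT, male atrn-/-, female WT and female atrn-/-. It was under the count filter, and its interval in females runs from -1.22 to 3.39, so a large change was not detectable at this depth.

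The second comparison asks how female brains differ from male brains in these genes, in both genotypes. Members tended to be lower in females. Both female libraries lay below both male libraries in 14 of 33 members (42.4%), beside 17.7% of all genes. They lay above both male libraries in 2 members (adcyap1a and spx), beside 18.6% of all genes. This rule uses the order of the libraries alone. Of the 14, both counting intervals leave out 0 in oxt, sst3, galn, adcyap1b, tac1, tac3a, cckb and nmbb. In trh, sst1.1, penka, cart2, cart4 and pyya at least 1 interval includes 0. The member median of the log2 ratio of female over male was -0.12 in WT and -0.12 in atrn-/-, against -0.011 and 0.00093 over all genes. Few of the differences reached 2-fold. In WT, 1 of 33 members differed at least 2-fold, oxt, beside 6.75% of all genes. It was lower in the female, as were 3.08% of all genes. In atrn-/-, 2 of 33 did, pmch and pmchl, beside 4.91% of all genes. Both were higher in the female, as were 1.86% of all genes. At 1.5-fold, 8 of 33 members differed in WT, beside 18.4% of all genes, and 7 of these were lower in the female, beside 8.2% of all genes. In atrn-/-, 6 of 33 differed at 1.5-fold, beside 13.7% of all genes.

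The markers of other tissues also differed by sex. As given above, muscle genes were highest in the female libraries. The fit called 8 of 17 kept muscle markers higher in females after adjustment, beside 0.1% of all genes (20 of 19943). The neuron marker sum was 12590 and 12420 CPM in the male WT and male atrn-/- and 11450 and 12110 CPM in the female WT and female atrn-/-. The count of members below both males changed with the scaling, and so did the share of all genes. The part of the marker differences in this was not tested. With total counts in place of TMM sizes, a run not planned beforehand, 12 of 33 members were below both males in both females, beside 15.5% of all genes. The members lost were trh and sst1.1, whose nearest male and female libraries were almost equal (67.2 and 66.9 CPM, and 45.95 and 45.91 CPM). Per summed counts of the neuron markers, an alternative chosen after seeing the data, 8 of 33 members (oxt, galn, tac1, tac3a, penka, cckb, nmbb and cart4) remained below both males in both females, beside 9.86% of all genes. Without the female WT, 17 members in the female atrn-/- were below both males, beside 34.5% of all genes. Without the female atrn-/-, 21 members in the female WT were below both males, beside 36.1% of all genes.

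The oxytocin gene oxt was the member that passed the test for sex. In fish oxt encodes isotocin, the counterpart of oxytocin, made in the preoptic area and released from the posterior pituitary, with roles in social and reproductive behaviour. oxt had 227 CPM in the male WT, 242 CPM in the male atrn-/-, 104 CPM in the female WT and 123 CPM in the female atrn-/-. Both males were high, both females low, and the groups did not overlap. The log2 ratio of female over male was -1.13 (95% interval -1.24 to -1.02) in WT and -0.98 (95% interval -1.06 to -0.90) in atrn-/-. Over both genotypes oxt fell by 1.05 on the log2 scale in females (standard error 0.107, adjusted p = 0.0295, edgeR's quasi-likelihood test). It was 1 of 8 genes called lower in females, 0.0401% of all genes. DESeq2's Wald test on the same 4 libraries also called it (adjusted p = 1.63e-08), which is not independent support. The tests differ in how they treat the 1 residual degree of freedom, so the smaller p is not stronger evidence. Per summed counts of the neuron markers the log2 ratio of oxt was -0.99 in WT and -0.94 in atrn-/-.

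The call on oxt was lost in some smaller fits, all with the same direction and a log2 fold change of -1.17 to -0.94. Its adjusted p was 0.656 without the genotype term. With a library left out, which also requires the genotype term to be dropped, it was 1 without the male WT, 0.83 without the male atrn-/-, 0.177 without the female WT and 0.039 without the female atrn-/-. By genotype oxt differed little, with a log2 ratio of atrn-/- over WT of 0.092 (95% interval 0.03 to 0.16) in males and 0.24 (95% interval 0.12 to 0.36) in females (adjusted p = 0.702 in the genotype comparison, edgeR's quasi-likelihood test). Because both females lay below both males, no leave-out could have turned the sign of the sex difference, so its constancy adds no support.

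**Figure D4:**
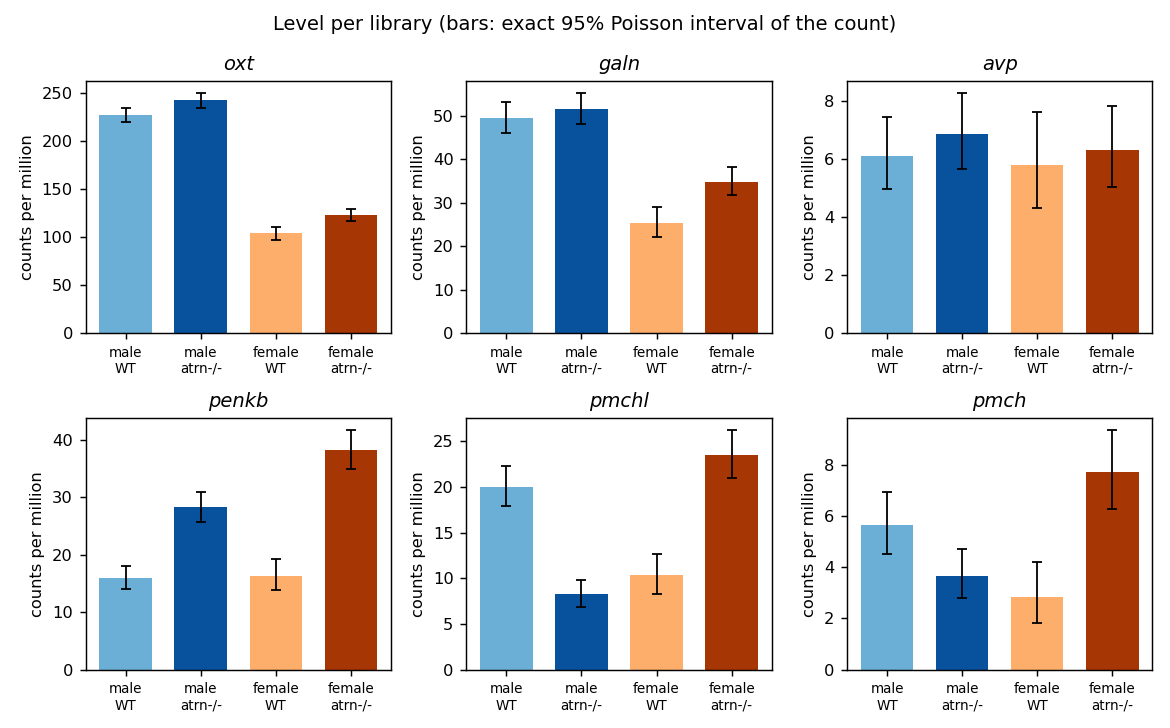
Level of 6 genes in CPM in the 4 libraries, with the exact 95% Poisson interval of the count as the error bar (counting error only). oxt and galn are high in both males, avp is level across the libraries, penkb is high in both atrn-/- libraries, and pmchl and pmch are high in the male WT and the female atrn-/-.

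The vasopressin gene avp, which encodes vasotocin in fish and is made by neighbouring neurons of the preoptic area, did not share the sex difference of oxt. It had 6.13 CPM in the male WT, 6.88 CPM in the male atrn-/-, 5.80 CPM in the female WT and 6.33 CPM in the female atrn-/-. The libraries overlapped within counting error. Its log2 ratio of female over male was -0.076 (95% interval -0.60 to 0.42) in WT and -0.12 (95% interval -0.55 to 0.30) in atrn-/-, intervals that leave out a fall as large as that of oxt. Neither oxytocin receptor gene passed a test. oxtr had 15, 35, 15 and 23 counts and oxtrl 18, 14, 3 and 8 counts in the male WT, male atrn-/-, female WT and female atrn-/-.

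Galanin, a peptide of hypothalamic and preoptic neurons with roles in feeding, sleep and parental behaviour, had the next lowest unadjusted p for sex among the members. galn had 49.6 CPM in the male WT, 51.7 CPM in the male atrn-/-, 25.4 CPM in the female WT and 34.9 CPM in the female atrn-/-. Both males were near 50 CPM and both females below. The log2 ratio of female over male was -0.96 (95% interval -1.19 to -0.75) in WT and -0.57 (95% interval -0.74 to -0.40) in atrn-/-. Over both genotypes it was -0.76 (standard error 0.148), which did not pass (adjusted p = 0.299, edgeR's quasi-likelihood test). Among the 10 alternatives it passed only without the filter on low counts (adjusted p = 0.0267, edgeR's quasi-likelihood test), and its adjusted p reached 1 in another. Of its receptors, galr1a had 5.50, 3.29, 3.53 and 5.26 CPM in the male WT, male atrn-/-, female WT and female atrn-/-. The same libraries were high as in the MCH genes. Its log2 ratio of atrn-/- over WT was -0.72 (95% interval -1.26 to -0.24) in males. In females it was 0.56 (95% interval -0.05 to 1.24), an interval that includes 0. galr1b had 2.19, 3.47, 3.53 and 4.42 CPM in the same libraries.

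In all, 8 of 33 members had an unadjusted p under 0.05 for sex, beside 7.57% of all genes, 7 lower in females, beside 3.19% of all genes, and 1 higher, beside 4.38%. Of these, oxt alone passed after adjustment, beside 0.14% of all genes. DESeq2's Wald test named oxt, galn and tac1 at an unadjusted p under 0.05, beside 2.62% of all genes, and oxt alone after adjustment, beside 0.186%. Apart from oxt and galn, the lower ones were tac1, tac3a, adcyap1b, cckb and nmbb, with adjusted p between 0.605 and 0.657 in edgeR's quasi-likelihood test. tac1, the precursor of substance P and neurokinin A, had 114 CPM in the male WT, 87.9 CPM in the male atrn-/-, 79.3 CPM in the female WT and 76.0 CPM in the female atrn-/-. The male WT was the high library, and the log2 ratio of female over male was -0.52 in WT and -0.21 in atrn-/-. tac3a, a neurokinin B gene, had 22.3, 23.1, 14.9 and 17.9 CPM in the same libraries, with both males above both females. Its log2 ratios were -0.57 in WT and -0.37 in atrn-/-. nmbb, a neuromedin B gene of the bombesin family, had 62, 74, 19 and 30 counts, or 3.88, 4.59, 2.16 and 2.29 CPM. Its log2 ratio of female over male was -0.80 (95% interval -1.67 to -0.08) in WT and -0.96 (95% interval -1.67 to -0.37) in atrn-/-. cckb had ratios of -0.28 and -0.52, with 32.3, 34.05, 26.5 and 23.7 CPM in the same order.

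The PACAP paralogs differed by sex in opposite directions. PACAP, encoded by adcyap1a and adcyap1b, raises cyclic AMP in neurons and pituitary cells. adcyap1b had 585 CPM in the male WT, 584 CPM in the male atrn-/-, 541 CPM in the female WT and 436 CPM in the female atrn-/-. The males were equal and the female atrn-/- was lowest. Its log2 ratio of female over male was -0.11 in WT and -0.42 in atrn-/-. adcyap1a had 11.4 CPM in the male WT, 15.4 CPM in the male atrn-/-, 19.8 CPM in the female WT and 19.0 CPM in the female atrn-/-. Here both females were above both males, with log2 ratios of 0.78 (95% interval 0.48 to 1.099) in WT and 0.30 (95% interval 0.04 to 0.56) in atrn-/-. Neither paralog passed after adjustment (adjusted p = 0.626 for adcyap1a and 0.657 for adcyap1b, edgeR's quasi-likelihood test). The PACAP receptor gene adcyap1r1a was also higher in both females, with 36.4, 43.2, 55.3 and 53.2 CPM in the male WT, male atrn-/-, female WT and female atrn-/- (adjusted p = 0.576, edgeR's quasi-likelihood test). In RefSeq's table adcyap1a overlaps acer2, which had 2.98 to 3.87 CPM, and adcyap1b overlaps yes1, which had 94.5 to 104 CPM. The related gene vip, for vasoactive intestinal peptide, stayed between 32.8 and 37.5 CPM.

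**Figure D5:**
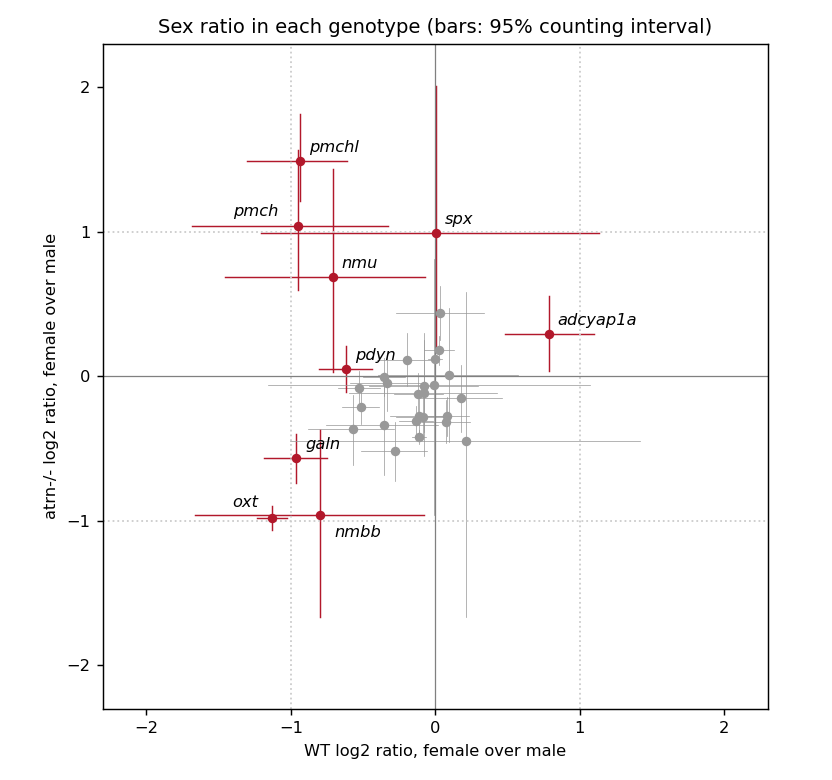
Log2 ratio of female over male in WT (horizontal axis) and in atrn-/- (vertical axis) for 33 genes, each point with its 95% counting intervals and with dotted lines at 2-fold. oxt and nmbb lie near -1 on both axes, galn lies at -0.96 and -0.57, adcyap1a lies above 0 on both, and pmchl and pmch lie below 0 in WT and above 1 in atrn-/-.

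The peptides that act on the anterior pituitary varied less. trh, the precursor of thyrotropin-releasing hormone, had 81.7 CPM in the male WT and 63.9 to 67.2 CPM in the other libraries, so the male WT alone was high. The gene listed as sst3, which RefSeq now names sst6.1, had 105, 111, 95.6 and 89.8 CPM in the male WT, male atrn-/-, female WT and female atrn-/-. sst1.1, the gene for the somatostatin that inhibits growth hormone release, stayed between 43.3 and 55.8 CPM, and sst2 had 0 counts in each library. ghrh, for growth hormone-releasing hormone, had 12 to 27 counts. uts1, a urotensin gene of the corticotropin-releasing family, stayed between 47.4 and 58.9 CPM, and uts2a had 1 count in all. The bombesin-family gene grp had 1 to 6 counts in each library.

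Pituitary hormones themselves were at or near 0. gh1, growth hormone, had 0 to 2 counts in each library, and prl, prolactin, had 6, 4, 0 and 4 counts in the male WT, male atrn-/-, female WT and female atrn-/-. With the floor of 3 counts, the 0 counts of prl in the female WT allow 0.342 CPM, and the exact 95% Poisson limit is 0.42 CPM. smtla had 0 counts in each library and smtlb 1 or 2. Of 18 listed pituitary markers 17 were in the table. The defining ones had at most 4 counts for cga, the shared alpha subunit, at most 5 for lhb and fshb, the gonadotropin beta subunits, and at most 3 for pou1f1, the transcription factor of growth hormone and prolactin cells. Differences between the groups were not detectable for these hormones at this depth.

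Granule proteins and processing enzymes differed little as a list, and single genes differed in single libraries. scg2b, a secretogranin and the source of the peptide secretoneurin, had 604, 582, 602 and 631 CPM in the male WT, male atrn-/-, female WT and female atrn-/-, a spread far under 1.5-fold. vgf, another granin-like precursor, had 127, 109, 129 and 124 CPM in the same libraries. Of 22 listed genes of peptide processing and granules in the table, 20 were kept. edgeR's quasi-likelihood test called 0 of the 20 for genotype and 0 for sex after adjustment, and 0 and 2 had an unadjusted p under 0.05, beside 9.07% and 7.57% of all genes. The medians of their log2 ratio of atrn-/- over WT were 0.036 in males and 0.0072 in females. cpe, the carboxypeptidase that trims cut precursors, stayed between 1480 and 1612 CPM, and pam, which amidates peptide ends, between 450 and 478 CPM. scg5, the chaperone of the convertase pcsk2, had 83.8 CPM in the male WT and 119 to 125 CPM in the other libraries, with a log2 ratio of atrn-/- over WT of 0.57 (95% interval 0.47 to 0.67) in males and -0.064 in females. chgb, a granin, had 83.3 CPM in the male atrn-/- and 101 to 114 CPM in the other libraries, with ratios of -0.45 (95% interval -0.55 to -0.35) and 0.12. For sex, the lower of the 2 genes was chga, with 238, 240, 180 and 209 CPM. The higher was pcsk1, the prohormone convertase that makes the first cuts in many precursors, with 75.8 CPM in the male WT, 89.3 CPM in the male atrn-/-, 112 CPM in the female WT and 114 CPM in the female atrn-/-. Its log2 ratio of female over male was 0.56 in WT and 0.35 in atrn-/- (adjusted p = 0.5, edgeR's quasi-likelihood test).

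The receptors of these peptides were measured at lower depth. Of 15 receptor genes of feeding peptides found by name, 12 were kept, of 21 neuroendocrine peptide receptors 19, and of 10 opioid and tachykinin receptors 9. edgeR's quasi-likelihood test called 0 of these genes after adjustment in either fit. At an unadjusted p under 0.05 there were 0 higher and 2 lower for genotype, the tachykinin receptor tacr2 and the neuromedin B receptor nmbr, and 3 higher and 1 lower for sex. Of all genes 4.66% were lower for genotype, and 4.38% were higher and 3.19% lower for sex. tacr2 had 5.38 CPM in the male WT, 4.09 CPM in the male atrn-/-, 10.7 CPM in the female WT and 3.13 CPM in the female atrn-/-. The female WT was high, and the log2 ratio of atrn-/- over WT was -0.38 (95% interval -0.88 to 0.09) in males and -1.73 (95% interval -2.34 to -1.23) in females. The lower gene for sex was tacr3l, a receptor of the neurokinin B family, with 35, 75, 12 and 24 counts in the male WT, male atrn-/-, female WT and female atrn-/-.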

How the data were processed

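The deposited table held raw read counts per gene for 4 libraries, as the authors made it. Total RNA was sequenced as Illumina TruSeq libraries. The submitters' processing notes name HISAT2 and GRCz10, while the study's methods name MapSplice, RPKM and EB-Seq. The counting program, annotation and strand setting are not given in the sources used here. Groups followed the source labels, with 1 library each.

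Counts were analysed with edgeR 4.0.16 in R 4.3.3 with TMM factors (0.992 to 1.015), after a filter on a mean of at least 10 counts. DESeq2 1.42.0 was an alternative. Ratios used a prior count of 2. Both fits were tried on simulated data with a common dispersion for all genes. No sex by genotype difference or difference in tissue composition was simulated, so that trial does not show how the fits behave with either. Total counts of 8654693 to 16254750 limit precision to the intervals printed, which cover counting error only.

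The rule for giving a member by library was the 8 highest mean CPM, a 2-fold difference in any pair, or an unadjusted p under 0.05. Paralogs were added, and the other members were given mostly by ranges. Some genes are given by library outside this rule, among them pdyn, pnocb, spx, hcrt and prl. Genes outside the members, such as nkx2.4b, nkx2.4a, rx3, hmx2, galr1a, scg5 and chgb, were picked with their values known. The members and lists were chosen with earlier results of these data known. Overlapping genes came from RefSeq's table of GRCz12tu. Of 39 members matched there, 14 overlap another gene and 9 a protein-coding gene, among them pdyn, npy and pyya.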

Additional observations from a re-analysis of the deposited data

Results flagged for a closer look

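In 5 members the atrn-/- and WT libraries differed in opposite directions in the sexes, with each counting interval on its own side of 0. The female log2 ratio of atrn-/- over WT minus the male one was 2.43 for pmchl, 1.99 for pmch, 0.67 for pdyn, 0.12 for scg2b and -0.36 for npy. The MCH genes pmchl and pmch, the dynorphin gene pdyn and the granin gene scg2b were lower in the male atrn-/- and higher in the female atrn-/- (3.26% of all genes), and npy was the reverse (2.68% of all genes). For scg2b the ratios were only -0.054 and 0.067, on a mean of 8150 counts that makes its intervals narrow. Each sex and genotype had 1 library, so the difference between the sexes was not tested. In RefSeq's table pdyn overlaps the protein-coding gene gmeb2 and npy overlaps pals2b. With the strand setting not given, reads of such loci may not be told apart.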

How the results depend on the processing

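Members that passed the tests were oxt for sex and none for genotype, and no result reversed under any alternative run. The members followed through the fits were those with an unadjusted p under 0.05. In each, the libraries of the groups compared did not overlap in CPM, so no leave-out run could have turned a sign. The absence of reversals there adds no support. Without the filter on low counts the genotype fit called 294 genes and 1 member (penkb), against 42 and 0, and the sex fit 132 genes and 2 members (oxt and galn), against 28 and 1. DESeq2 called 96 genes for genotype. Without the covariate 5 genes were called for genotype, and 1 gene and 0 members for sex. With 1 library left out, which also drops the covariate, the calls for genotype were 4 (without the female atrn-/-) to 56 genes (without the male WT). For sex they were 1 gene (without the male WT or the male atrn-/-) to 78 genes (without the female atrn-/-), and 0 to 1 members. In such fits the lone library is assumed to vary like the other group. At least 2-fold differences between single libraries depended on the filter and the fold. Without the filter the genes past the fold were 2593 in males (main value 1022), 3908 in females (1554), 3254 between the WT (1346) and 2901 between the atrn-/- libraries (980). With a mean of at least 50 counts they were 297, 483, 407 and 257. At 1.5-fold they were 2902, 3749, 3679 and 2738. The members past the fold were 1 in males with at least 50 counts (pmchl), 5 in females and 3 between the WT without the filter, gh1 and prl being added in each. At 1.5-fold they were 4 in males, 8 between the WT and 6 between the atrn-/- libraries. The counts of members lower in both females are in the text above. The cause of these changes was not tested. By construction more genes enter without the filter, fewer enter with a mean of at least 50 counts, and fewer libraries enter a leave-out run. No paired analysis was possible because each sex and genotype has 1 library and the labels give no replicate numbers. Depth limits hcrt, prl, gh1 and the other genes under 10 counts on average.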

Other observations

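Other genes of peptide signalling outside the list gave these values. otpa, a homeobox gene of neuroendocrine neurons of the preoptic area, had 63.8 CPM in the male WT, 42.9 CPM in the male atrn-/-, 60.0 CPM in the female WT and 42.3 CPM in the female atrn-/-. Both atrn-/- libraries were low, and over both sexes the log2 fold change was -0.54 (standard error 0.121), which did not pass (adjusted p = 0.237, edgeR's quasi-likelihood test). pyyb, the paralog of pyya, had 87, 60, 52 and 45 counts in the male WT, male atrn-/-, female WT and female atrn-/-. Its log2 ratio of atrn-/- over WT was -0.53 (95% interval -1.05 to -0.06) in males and -0.76 (95% interval -1.40 to -0.18) in females, and the fit did not pass (adjusted p = 0.575, edgeR's quasi-likelihood test). gcgb, a proglucagon gene, had 24, 33, 12 and 25 counts in the same order, while ins and gcga had at most 3 counts and ghrl, the ghrelin gene, had 0 in each library.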
